A study of Ipomoea batatas with 12 samples.

Results

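A set of 260 sweet potato leaf genes stood high together in 1 library of each treatment, among 32301 gene identifiers measured in 12 RNA sequencing libraries. The libraries came from the third leaf of Ipomoea batatas, cultivar Tainong 57, grown from scions for 3 weeks with 16 h of light and 8 h of dark and treated for 1 h. Water, the control, the peptide IbHypSysIV and the peptide IbPep1 were each represented by 4 libraries, and no transgene or mutation is given for any group. The 3 libraries were water replicate 3, IbHypSysIV replicate 4 and IbPep1 replicate 3, here called the defining libraries. Genes with a mean of 1 CPM (read counts scaled to the library's total) or more over the 12 libraries are called expressed genes here. An expressed gene was a member if each defining library exceeded the mean of the other 3 libraries of its own treatment by at least 0.8 in log2(CPM + 0.5). This difference is called the excess. There were 20787 expressed genes, and the 260 members were 1.25% of them. The members were therefore chosen by the readout itself, and their height in the defining libraries is a description of the choice, without a test.

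Hydroxyproline-rich systemins and plant elicitor peptides are small signals that plants cut from larger precursor proteins. Elicitor peptides are bound at the cell surface by receptor kinases and are regarded as damage signals, and in tobacco and tomato hydroxyproline-rich systemins induce defence proteins such as protease inhibitors. A single leaf, however, is a mixture of epidermal, mesophyll and vascular cells, so that in an extract of a whole leaf fewer cells of a type and less RNA per cell cannot be told apart. No gene names stand beside the identifiers in the submitters' table, and 0 of 32301, members included, were found in a sweet potato gene table. No gene can therefore be given a function here, leaf marker genes could not be checked, and only a few identifiers are printed. For the same reason it was not known which members have near-identical copies or overlapping neighbours that share reads. The treatment field in the labels counts up from IbPep1 over the 4 IbPep1 libraries and so reads IbPep3 for the defining one. The source name, by which all 4 libraries were grouped, gives IbPep1 for each. Whether replicates were separate plants is not stated, so that p-values refer to the spread between these libraries only, part of which may be technical.

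Total counts were 16607188 to 25073251 per library. Of the defining libraries, IbHypSysIV replicate 4 was the shallowest of all 12, with 16607188 counts, whereas water replicate 3 and IbPep1 replicate 3 had 22997183 and 23153078. The gene with the most reads was the same in all 12 libraries, and it took less of each defining library: 2.29% in water replicate 3 against 3.30% to 3.64% in the other water libraries, 2.05% against 3.16% to 3.87% in IbHypSysIV, and 1.61% against 2.79% to 3.40% in IbPep1. The 100 genes with the most reads together took 18.3% of water replicate 3, 15.1% of IbHypSysIV replicate 4 and 14.8% of IbPep1 replicate 3, against 18.7% to 23.4% in the other 9 libraries. The part of these differences in the members' height was not tested directly. Rescaling by TMM factors, which lowers the excess of all expressed genes from a median of 0.11, 0.11 and 0.15 to 0.04, 0.02 and 0.01, left the members' median excess above that of all genes at 1.28 in water, 1.41 in IbHypSysIV and 1.39 in IbPep1. Before that rescaling the same differences were 1.28, 1.41 and 1.38. A factor shifts all genes of a library by nearly the same amount, so this difference could hardly change and decides nothing here. The members' own median excess went from 1.39, 1.52 and 1.52 to 1.31, 1.43 and 1.40 with TMM.

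Together, the members took about 3 times as large a share of the reads in each defining library as in the other libraries of its treatment. In water replicate 3 they held 1.31% of the counts, against 0.439%, 0.372% and 0.453% in water replicates 1, 2 and 4. In IbHypSysIV replicate 4 they held 1.74%, against 0.611%, 0.651% and 0.512% in replicates 1 to 3. In IbPep1 replicate 3 they held 1.85%, against 0.550%, 0.686% and 0.573% in replicates 1, 2 and 4. The defining library was the highest of its treatment in each case, and the lowest of the 3 lay well above the highest of the other 9. Relative to the mean of the other 3 libraries, 0.421% ± 0.0435 in water, 0.591% ± 0.0716 in IbHypSysIV and 0.603% ± 0.0727 in IbPep1 (SD, n = 3), the ratio was 3.10, 2.95 and 3.06. The share in the defining libraries was thus set on a lower base in water than with either peptide, with nearly the same ratio.

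**Figure D1:**
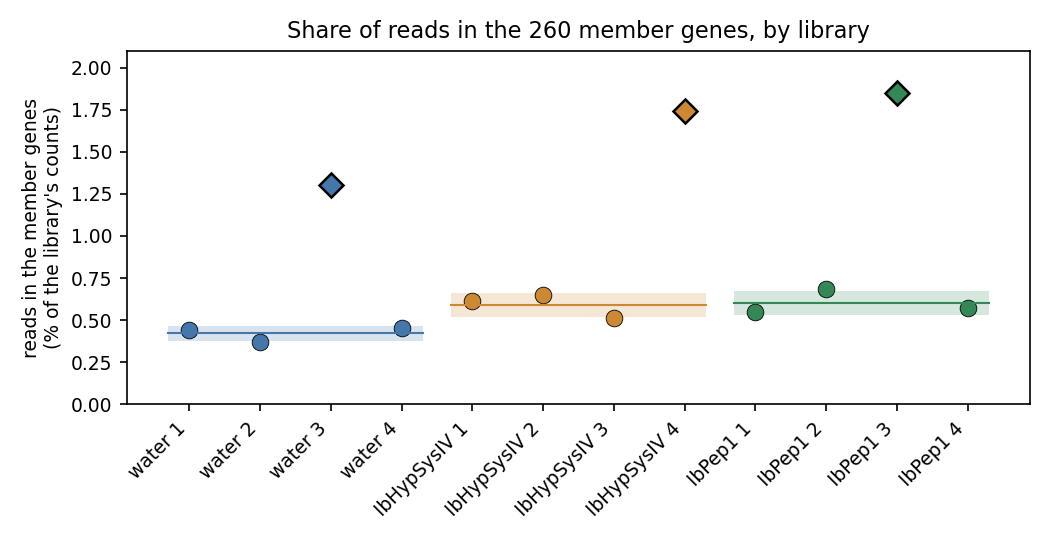
Share of each library's counts, in percent, that fell in the 260 member genes, with diamonds for the defining libraries, circles for the other 9, and lines and bands for the mean and SD of the other 3 libraries of each treatment. The diamonds lie at 1.31%, 1.74% and 1.85%, and no circle lies above 0.686%.

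The excess of single members was mostly between 2-fold and 4-fold. Its median was 1.39 in water replicate 3, 1.52 in IbHypSysIV replicate 4 and 1.52 in IbPep1 replicate 3 on the log2 scale, and its highest value 3.56, 4.18 and 4.49. An excess of at least 2, which is 4-fold on the CPM + 0.5 scale, was found in 47, 55 and 69 of the 260 members in the same order. In water replicate 3 all 260 members lay above each of the other 3 water libraries, and 259 did so in each of the other treatments. Across treatments the levels overlapped more: in 143 members, or 55.0%, all 3 defining libraries lay above all other 9 libraries. The highest of the 12 libraries was IbHypSysIV replicate 4 in 121 members, IbPep1 replicate 3 in another 121 and water replicate 3 in 17, and in 1 member it was IbPep1 replicate 2.

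**Figure D2:**
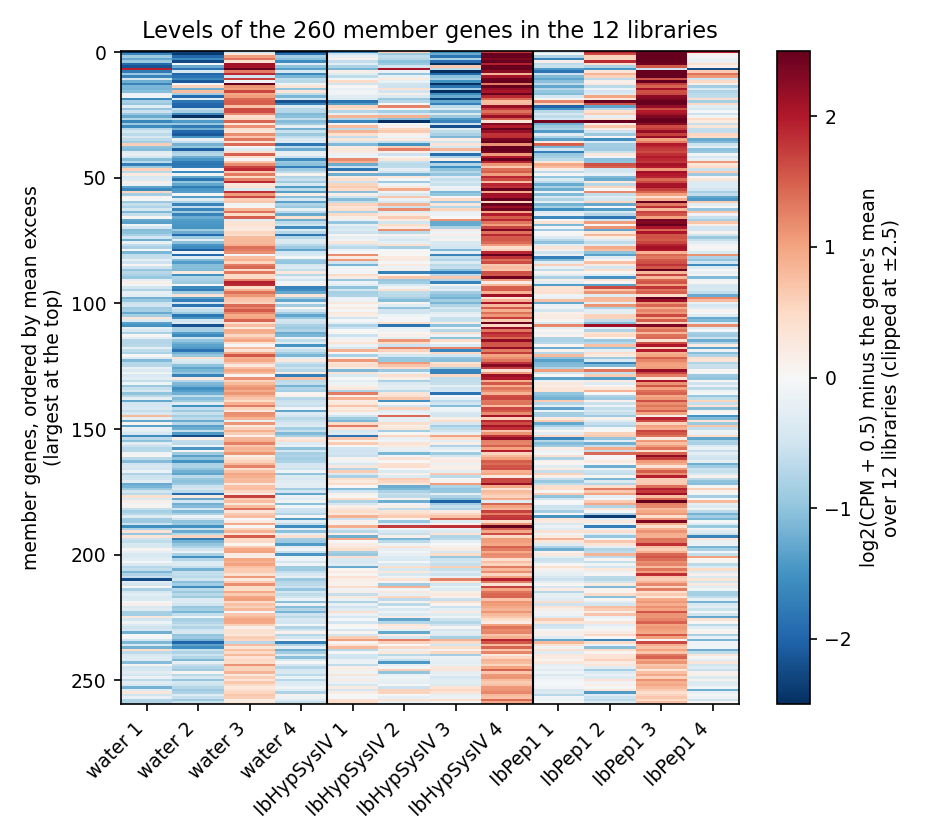
Levels of the 260 members (rows) in the 12 libraries (columns) as log2(CPM + 0.5) minus each gene's mean over the 12 libraries, with colours clipped at 2.5 either way. The columns of IbHypSysIV replicate 4 and IbPep1 replicate 3 are the most deeply red, water replicate 3 is paler, and water replicate 2 and IbHypSysIV replicate 3 hold many of the darkest blue cells.

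The member whose smallest excess was the largest, itf15g22400, stood at 0.879, 0.642, 7.96 and 1.15 CPM in water replicates 1 to 4. With IbHypSysIV it stood at 3.11, 1.55, 1.44 and 16.4 CPM in replicates 1 to 4, and with IbPep1 at 0.578, 4.43, 24.5 and 2.47 CPM. Its excess was 2.62, 2.80 and 3.32, and each defining library was set far above the rest of its treatment. The other IbPep1 libraries spanned the range of the other libraries of both remaining groups. It rested on 183, 272 and 568 counts in the defining libraries and on 12 to 88 counts in the others.

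The member with the most reads, itf03g14970, stood at 353, 255, 688 and 349.8 CPM in water replicates 1 to 4, at 524, 723, 587 and 1309 CPM with IbHypSysIV and at 391, 262, 581 and 315 CPM with IbPep1. It was among the members with a small excess, with 1.12, 1.11 and 0.87. The defining libraries of water and IbPep1 lay within the range of IbHypSysIV replicates 1 to 3, so that for this gene the 3 defining libraries did not stand above all others.

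The members covered a wide range of read levels. Their mean CPM ran from 1.002 to 528, with a median of 9.13 against 16.3 over all expressed genes. CPM is not divided by gene length, so these values show how many reads lie behind a gene and not which gene has more transcripts. Of the members, 81 had a mean under 5 CPM, 99 had 5 to 20, 62 had 20 to 100 and 18 had more. Members made up 1.60% and 1.54% of all genes in the first pair of classes and 0.847% and 0.911% in the other pair. The median of the smallest excess was nearly level across the 4 classes, at 1.10, 1.08, 1.11 and 1.14. The 10 members with the highest mean CPM supplied 39.6% of the members' summed CPM. No member lacked counts in a defining library, 4 lacked them in some other library, and 11 had fewer than 3 counts, the floor of 0.120 to 0.181 CPM that a count of 0 allows, in at least 1 library. This floor covers counting error only.

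The limit of 0.8 fell in a smoothly thinning range of values. The members closest above it had a smallest excess of 0.802, 0.803 and 0.804, and the genes closest below it 0.798, 0.797 and 0.797. Between 0.8 and 0.9 there were 54 genes, and between 0.7 and 0.8 there were 92. A smallest excess of at least 2 was reached by 10 members. The same rule with the sign turned, genes lower by at least 0.8 in each defining library, found 100 genes.

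Each defining library differed from its treatment in many more genes than the members. Water replicate 3 exceeded the other water libraries by at least 0.8 in 2120 of the 20787 genes (10.2%), IbHypSysIV replicate 4 its group in 1653 (7.95%) and IbPep1 replicate 3 its group in 1468 (7.06%). The members were 12.3%, 15.7% and 17.7% of these lists. Across the 20787 genes, which are not independent replicates, the excess in IbHypSysIV replicate 4 had a Pearson correlation of 0.533 with that in IbPep1 replicate 3 and of 0.423 with that in water replicate 3, and the excess in water replicate 3 one of 0.263 with that in IbPep1 replicate 3. The 3 values of a gene share no library, but each is divided by its own library's total. Among the members alone, where the limit removes all low values, Spearman's rho was 0.356, 0.182 and 0.0858 in the same order. The size of a member's excess in water replicate 3 was therefore a poor guide to its size in the other defining libraries.

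Leaving 1 defining library out of the rule and reading its value afterwards gives a measure that the choice by the other pair did not use. The 3 libraries were themselves singled out together from these data, so the values are no independent support. The 642 genes high in water replicate 3 and IbHypSysIV replicate 4 had a median excess of 0.55 in IbPep1 replicate 3, against 0.15 over all 20787 genes, and 40.5% of them reached 0.8 there, against 7.06% of all genes. The 403 genes high in water replicate 3 and IbPep1 replicate 3 had a median excess of 1.105 in IbHypSysIV replicate 4, where 64.5% reached 0.8, against 7.95% of all genes, and none was lower by 0.8 or more. The 657 genes high with both peptides had a median excess of 0.56 in water replicate 3, where 39.6% reached 0.8, against 10.2% of all genes, and 33 genes (5.02%) were lower by 0.8 or more. In each case the genes that passed in the left-out library are the same 260 members, so the shares that passed differ only by how many genes each pair chose. IbHypSysIV replicate 4 was thus the library in which the largest share of the genes chosen by the other pair passed, a description of these 3 libraries without a test.

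**Figure D3:**
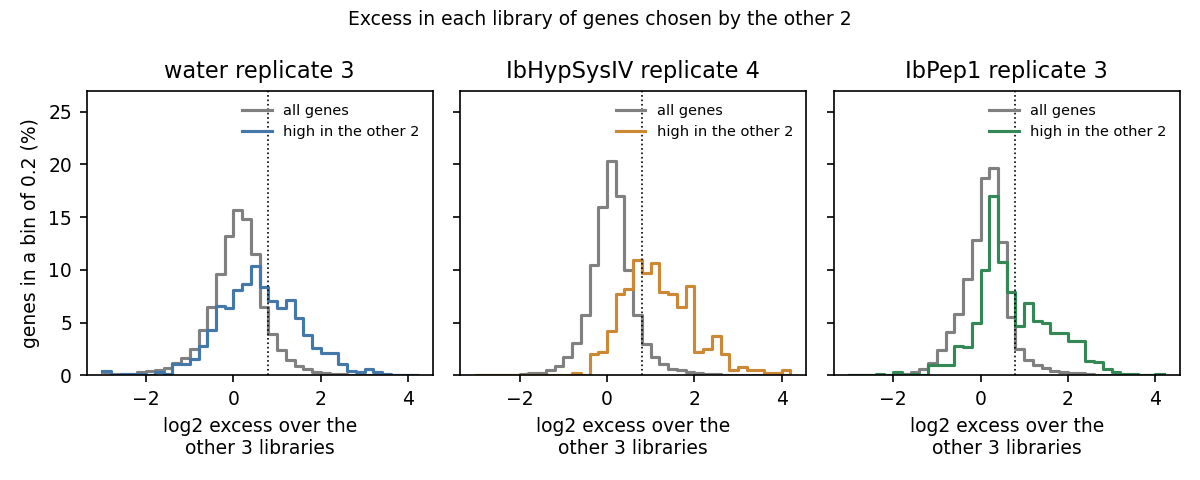
Distribution of the log2 excess in each defining library, for all 20787 expressed genes (grey) and for the genes with an excess of at least 0.8 in both other defining libraries (coloured), in percent of genes per bin of 0.2, with the dotted line at 0.8 and extreme values placed in the end bins. The coloured curves lie to the right of the grey ones, by the most in IbHypSysIV replicate 4, where the medians are 1.105 and 0.11.

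The order of the other 9 libraries within their treatments was not used directly by the rule, which took the mean of each 3. Members spread more among these libraries than genes in general. The rule chose genes that differ between libraries of the same treatment, and a low value in any of the 3 lowers their mean and favours membership. The larger spread is therefore not free of the choice, and the values below are a description. How much of the spread follows from the choice was not tested. The SD of log2(CPM + 0.5) over the other 3 libraries had a median of 0.389 over members and 0.163 over all expressed genes in water, of 0.394 and 0.240 in IbHypSysIV, and of 0.428 and 0.162 in IbPep1. At 20 to 100 CPM, where counting error is small, the medians were 0.342 and 0.128 in water, 0.432 and 0.213 in IbHypSysIV, and 0.354 and 0.121 in IbPep1.

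The members also leaned the same way within each treatment. Of the 3 remaining water libraries, water replicate 2 was the lowest in 164 of the 260 members (63.1%), against 34.5% of all expressed genes, and its median deviation from the mean of the 3 was -0.25. Water replicate 1 was the highest in 137 members (52.7%), against 36.3% of all genes. With IbHypSysIV, replicate 3 was the lowest in 135 members (51.9%), against 27.2% of all genes, with a median deviation of -0.16. With IbPep1, replicate 2 was the highest in 123 members (47.3%), against 34.1% of all genes, with a median deviation of 0.16. After TMM scaling, the same shares were 59.2% against 27.5%, 52.7% against 34.6%, 48.8% against 23.1% and 48.1% against 35.1%. Of the 100 genes low in the defining libraries, water replicate 2 was the highest of its 3 in 67, against 25.7% of all genes, and IbPep1 replicate 2 the lowest of its 3 in 67, against 37.6%. The other libraries named here leaned less there: IbHypSysIV replicate 3 was the highest in 36 of the 100, with replicate 2 at 35, against 22.6% of all genes. Water replicate 1 was the lowest in 41, against 35.7%, and water replicate 4 in 49. A low value in any of the 3 libraries lowers their mean and favours membership, and a high one favours the 100 low genes. The shares are therefore not free of the choice. Genes are not replicates, and these shares carry no test.

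**Figure D4:**
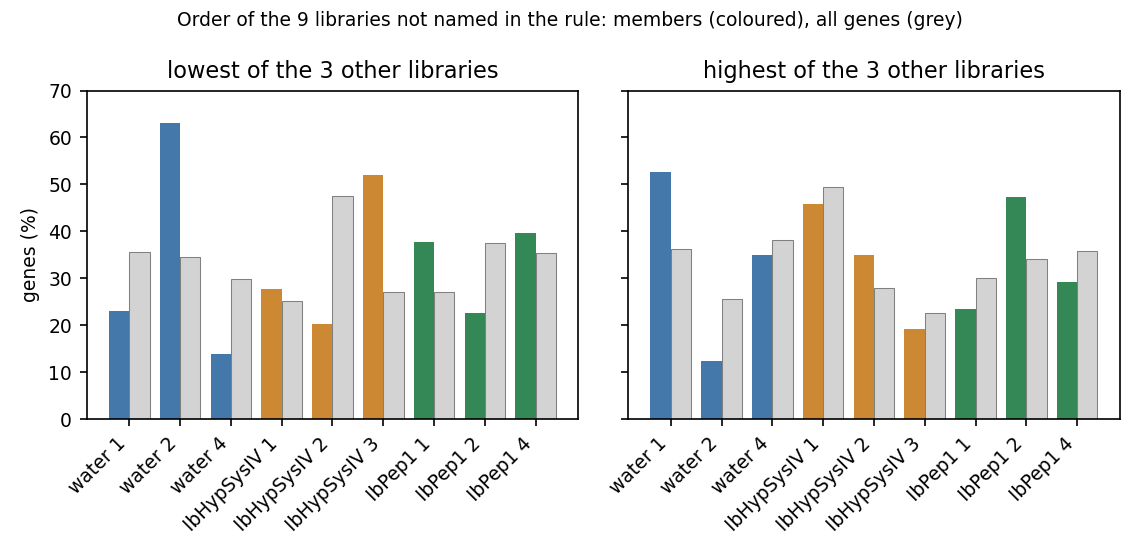
Percent of genes in which each of the 9 other libraries was the lowest (left) or the highest (right) of the 3 of its treatment, for the 260 members (coloured by treatment) and for all 20787 expressed genes (grey). Water replicate 2 was the lowest in 63.1% of the members and IbHypSysIV replicate 3 in 51.9%, against 34.5% and 27.2% of all genes.

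Members were spread over all 16 identifier prefixes. Their share of the expressed genes was highest for the prefix itf09, with 28 of 1441 (1.94%), and itf02, with 25 of 1379 (1.81%). It was lowest for itf14, with 2 of 1023 (0.196%), and itf00, with 2 of 652 (0.307%), against 1.25% over all prefixes. Members also tended to have members next to them in the order of identifiers. Among expressed genes, the next identifier after a member was a member too in 23 of 260 cases (8.85%), against the 1.25% of all these genes that are members. In all, 42 members (16.2%) lay in 19 such runs, of which 17 held 2 genes, 1 held 3 and 1 held 5. Whether neighbouring identifiers share reads was not tested.

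Over the 12 libraries, Pearson's correlation between the log2(CPM + 0.5) of genes in 1 run ran from 0.465, in a pair under itf10, to 0.982, in a pair under itf05, so neighbours did not follow each other equally closely. The longest run, of 5 genes, lay under the prefix itf04. The third gene of the run stood at 19.3, 72.6, 321 and 60.5 CPM in water replicates 1 to 4, at 61.6, 39.4, 8.57 and 290.1 CPM with IbHypSysIV and at 47.0, 99.9, 399.7 and 97.3 CPM with IbPep1. The fifth gene stood at 59.1, 187, 1095 and 172 CPM in water, at 134, 132, 31.1 and 451 CPM with IbHypSysIV and at 117, 216, 609 and 208 CPM with IbPep1. In both genes water replicate 1 was the lowest of the water libraries, not water replicate 2 as in most members, and IbHypSysIV replicate 3 was the lowest of all 12. The fourth gene was much lower throughout, at 0.0963 to 5.06 CPM, with its highest value in IbHypSysIV replicate 4. Pearson's correlation over the 12 libraries was 0.723 to 0.978 between genes of this run, which the 3 defining libraries raise by the choice of members.

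Treatment differences were examined next, since the rule set each library against its own treatment. In the 9 other libraries the members were mostly higher with a peptide than with water. The mean log2(CPM + 0.5) of the 3 libraries was higher with IbHypSysIV than with water in 212 of the 260 members (81.5%), against 46.9% of all expressed genes, with a median difference of 0.52 against -0.03. With IbPep1 it was higher than with water in 195 members (75%), against 49.96% of all genes, with a median of 0.48 against -0.00064. Between the peptides the members divided evenly: 129 were higher with IbPep1 than with IbHypSysIV (49.6%), with a median of -0.00068. Water was the lowest of the 3 treatments in 163 members (62.7%), against 30.0% of all genes, IbPep1 in 58 and IbHypSysIV in 39. Between the 3 defining libraries, 1 for each treatment, the members' median difference was 0.62 for IbHypSysIV minus water, 0.52 for IbPep1 minus water and 0.01 for IbPep1 minus IbHypSysIV. Over all expressed genes it was 0.00015, 0.06 and 0.05. For each gene this difference is that of the 9 other libraries plus the difference of the excesses, whose medians were much alike. It is therefore no separate observation. The means of these 9 libraries enter the rule, where a low mean favours membership in each treatment, so the values are a description. Whether it does so equally in each treatment was not tested. The comparisons with water also share the same water libraries.

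**Figure D5:**
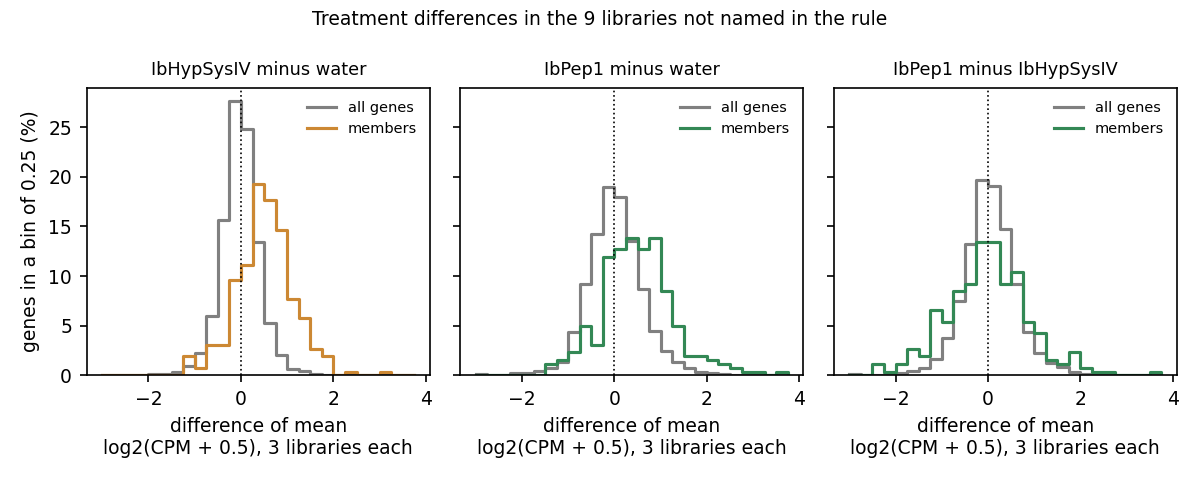
Differences between treatments in mean log2(CPM + 0.5) over the 3 libraries of each treatment that are not defining libraries, for the 260 members (coloured) and all 20787 expressed genes (grey), in percent of genes per bin of 0.25, with extreme values placed in the end bins. The members' curve lies to the right of the grey one in both comparisons with water, with medians of 0.52 and 0.48, and around 0 between the peptides.

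By gene, few members passed a test of treatment on all 12 libraries. Each gene was tested by edgeR's quasi-likelihood method, with p adjusted after Benjamini and Hochberg over 23193 genes, and called at an adjusted p under 0.05. For IbHypSysIV against water 2 members were called (0.769%, against 2.31% of all genes tested), both of them higher (against 1.22% higher), although 209 of the 260 had a positive fold change and the median log2 fold change was 0.65, against 0.01 over all genes tested. For IbPep1 against water 6 members were called (2.31%, against 11.5%), all 6 higher (against 5.51% higher), with a median of 0.56 against 0.0016. Between the peptides 12 were called (4.62%, against 15.8%), 5 higher (1.92%, against 6.7%) and 7 lower (2.69%, against 9.14%) with IbPep1, with a median of -0.11 against 0.0024. All 260 members passed the filter on low counts of this test. DESeq2 on the same 12 libraries called 20 of 259 members for IbHypSysIV against water (7.72%, against 6.10% of all genes), 21 for IbPep1 against water (8.11%, against 15.5%) and 29 between the peptides (11.2%, against 17.7%). For IbHypSysIV the members' share was thus below that of all genes with edgeR and above it with DESeq2. The members were chosen for a spread within each treatment, and its part in these shares was not tested.

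Without the defining libraries the same test on 9 libraries, 3 for each treatment, called many more members. Members were chosen for the gap of the defining libraries to their own treatment, so removing those libraries favours more calls. The means of the 9 libraries also enter the rule, so the counts below are a description. For IbHypSysIV against water it called 40 members (15.4%, against 4.99% of 23122 genes tested), 39 higher (15.0%, against 2.74%) and 1 lower (0.385%, against 2.24%). For IbPep1 against water it called 79 (30.4%, against 28.4%), 70 higher (26.9%, against 14.1%) and 9 lower (3.46%, against 14.3%). Between the peptides it called 69 (26.5%, against 23.9%), 30 higher (11.5%, against 11.3%) and 39 lower (15.0%, against 12.6%) with IbPep1, which is near the background both ways. The 2, 6 and 12 members called on all 12 libraries were all among those called here, of which they are 5.0%, 7.59% and 17.4%. As a count without a model, the 3 IbHypSysIV libraries all lay above the 3 water libraries in 84 members (32.3%, against 13.1% of all expressed genes) and all below them in 5 (1.92%, against 14.7%). For IbPep1 against water the same counts were 92 (35.4%, against 25.2%) and 14 (5.38%, against 27%), and for IbPep1 against IbHypSysIV 39 (15.0%, against 19.7%) and 52 (20%, against 22.1%).

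The size of the treatment difference depended on which defining library was in its group. The rule chose members for height in each defining library, so shifts in these directions follow from the choice. The median log2 fold change of the members for IbHypSysIV against water was 1.23 without water replicate 3 and 0.05 without IbHypSysIV replicate 4. For IbPep1 against water it was 1.14 without water replicate 3 and 0.02 without IbPep1 replicate 3. Between the peptides it was 0.51 without IbHypSysIV replicate 4 and -0.60 without IbPep1 replicate 3. Calls moved with the left-out library among members and among all genes tested, but not always in the same direction. Between the peptides without IbPep1 replicate 3, all genes called fell from 3674 to 3361 while members rose. Each count of members is therefore set beside the share of all genes called in the same edgeR fit. For IbHypSysIV against water the 2 members called became 13 without water replicate 3 (5.0%, against 4.14%), 10 without IbPep1 replicate 3 (3.85%, against 2.87%) and 4 without IbHypSysIV replicate 1 (1.54%, against 2.04%), and 1 without IbHypSysIV replicate 4 (0.385%, against 1.14%). No member was called without water replicate 1, 2 or 4 or IbHypSysIV replicate 3, fits that called 52, 112, 121 and 34 genes in all. In these fits 22, 23, 27 and 57 members had an unadjusted p under 0.05 in edgeR. No share of all genes was computed at that limit, so these counts do not set the members apart from other genes. On all 12 libraries limma-voom called 3 members (1.15%, against 2.23%). For IbPep1 against water the 6 became 62 without water replicate 3 (23.8%, against 25.8%) and 13 without IbHypSysIV replicate 4 (5.0%, against 11.98%). They became 1 without water replicate 1, 2 or 4 (0.385%, against 3.57%, 2.26% and 2.28%), 3 without IbPep1 replicate 1 (1.15%, against 3.88%), and 2 without IbPep1 replicate 2 or 3 (0.769%, against 2.96% and 6.49%). Between the peptides the 12 became 29 without water replicate 3 (11.2%, against 21.6%) and 35 without IbPep1 replicate 3 (13.5%, against 14.4%). They became 5 without IbHypSysIV replicate 2 or 3 (1.92%, against 9.10% and 8.05%), 4 without IbPep1 replicate 2 (1.54%, against 7.01%), and 7 without IbPep1 replicate 1 or 4 (2.69%, against 9.10% and 10.98%). Counted in both directions together, the rises in both comparisons that involve IbPep1 left the members' share below that of all genes. By direction this did not hold throughout. All 62 without water replicate 3 were higher with IbPep1 than with water (23.8%, against 12.8% higher). Between the peptides without IbPep1 replicate 3, 32 of the 35 were lower with IbPep1 (12.3%, against 8.62%) and 3 higher (1.15%, against 5.75%). The rises to 13 and 29 in these comparisons stayed below in each direction.

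The members called for IbHypSysIV were itf02g12190 and itf09g14300. The level of itf02g12190 was 5.06, 5.14, 15.7 and 4.996 CPM in water replicates 1 to 4, 29.4, 53.0, 56.3 and 90.3 CPM with IbHypSysIV, and 14.0, 4.38, 20.7 and 7.78 CPM with IbPep1. Every IbHypSysIV library lay above every water and IbPep1 library. Against water its log2 fold change with IbHypSysIV was 2.93 (SE 0.51, edgeR adjusted p = 0.0191), and between the peptides it was -2.35 (SE 0.49, edgeR adjusted p = 0.0103), the second largest fall of a called member there. With IbPep1 against water it was 0.57 (edgeR adjusted p = 0.437). Its call against water was lost without water replicate 1, 2 or 4 or IbHypSysIV replicate 3, at log2 2.78, 2.79, 2.77 and 2.92.

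The level of itf09g14300 was 0.753, 0.198, 1.17 and 0.367 CPM in water, on 18, 4, 27 and 8 counts. It was 2.37, 3.58, 3.35 and 7.59 CPM with IbHypSysIV and 4.38, 3.27, 8.08 and 2.04 CPM with IbPep1, and no library of either peptide overlapped with water. Its log2 fold change was 2.75 with IbHypSysIV (SE 0.54, edgeR adjusted p = 0.0243) and 2.78 with IbPep1 (SE 0.54, edgeR adjusted p = 0.0121), against the same water libraries. The call for IbHypSysIV was lost without water replicate 1, 2 or 4 or IbHypSysIV replicate 3 or 4, at log2 2.86, 2.48, 2.57, 2.84 and 2.36.

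The largest fold changes of members called for IbPep1 against water were those of itf06g10940 and itf07g19620, and in both IbPep1 replicate 3 was by far the highest library. The level of itf06g10940 with IbPep1 was 1.69, 11.8, 157 and 12.2 CPM in replicates 1 to 4. It was 0.510, 4.45, 0.558 and 10.7 CPM with IbHypSysIV, and in water it had 1, 3, 40 and 1 counts. Apart from water replicate 3, water was thus at or below the floor of 3 counts, and the fitted log2 fold change of 6.41 (SE 1.56, edgeR adjusted p = 0.0261) depends on the prior count and is no bound. Without IbPep1 replicate 3 it was 4.13, without water replicate 1, 2 or 4 it was 6.02, 6.14 and 6.04, and each of these fits lost the call. Without all 3 defining libraries it was called, at log2 6.72 (edgeR adjusted p = 0.0055; range over 20 alternatives, DESeq2 and limma-voom included, 0.000357 to 0.127). Its excess was 1.96, 2.68 and 4.49 in water replicate 3, IbHypSysIV replicate 4 and IbPep1 replicate 3, and the last is the largest excess of any member there.

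The level of itf07g19620 was 2.01, 1.68, 5.17 and 3.07 CPM in water, 4.59, 6.48, 3.39 and 32.8 CPM with IbHypSysIV and 3.18, 11.1, 159 and 16.2 CPM with IbPep1. The groups overlapped, since IbPep1 replicate 1 lay below water replicate 3. Its log2 fold change against water was 3.90 with IbPep1 (SE 1.10, edgeR adjusted p = 0.0402) and 1.97 with IbHypSysIV (edgeR adjusted p = 0.314). Without IbPep1 replicate 3 the log2 fold change for IbPep1 was 1.79, and the call was also lost without IbPep1 replicate 2 (4.20) and without water replicate 1, 2 or 4 (3.75, 3.71 and 3.91). Without all 3 defining libraries it was called, at log2 2.18 (edgeR adjusted p = 0.0128; range over 20 alternatives, DESeq2 and limma-voom included, 0.00379 to 0.146).

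Between the peptides, itf15g05600 and itf15g06200 were the called members with the largest rises. The level of itf15g05600 was 43.1, 48.5, 69.0 and 9.40 CPM with IbPep1 and 2.18, 0.822, 2.19 and 9.88 CPM with IbHypSysIV, where IbHypSysIV replicate 4 lay above IbPep1 replicate 4. In water it was 2.18, 2.62, 22.1 and 3.39 CPM. Its log2 fold change between the peptides was 3.496 (SE 0.89, edgeR adjusted p = 0.0217), and the call was lost without IbHypSysIV replicate 2 or 3 (3.17 and 3.32) and without IbPep1 replicate 2 (3.39). The level of itf15g06200 was 214, 410.2, 468 and 211 CPM with IbPep1, 54.1, 25.8, 45.3 and 135 CPM with IbHypSysIV and 32.9, 20.2, 159.7 and 52.6 CPM in water. Every IbPep1 library lay above every other library, and the log2 fold change was 2.31 against IbHypSysIV (SE 0.61, edgeR adjusted p = 0.0244) and 2.29 against water (SE 0.61, edgeR adjusted p = 0.0337). Its call between the peptides was lost without IbHypSysIV replicate 1, 2 or 3 (2.22, 2.06 and 2.18) and without IbPep1 replicate 2 (2.14).

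Among members lower with IbPep1, itf12g17790 had the largest fold change. Its level was 10.3, 12.04, 9.17 and 19.1 CPM with IbHypSysIV, 1.64, 1.21, 4.84 and 1.85 CPM with IbPep1 and 3.18, 1.78, 7.04 and 4.81 CPM in water. The peptides did not overlap, and the log2 fold change was -2.46 (SE 0.45, edgeR adjusted p = 0.00565), a call that held in all 20 alternatives run. Against water, IbHypSysIV gave a log2 fold change of 1.61 (edgeR adjusted p = 0.0683) and IbPep1 one of -0.85 (edgeR adjusted p = 0.205).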

How the data were processed

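TRIzol was used to extract RNA. The labels' protocols mention NEBNext Ultra and SMARTER library kits, without a match to libraries. The authors deposited raw read counts per gene identifier in 1 column for each of 12 libraries, with 0 columns of other samples. The submitters' processing notes name the tools HISAT2 (2.0.5), HTSeq (0.6.1) and DESeq2 (1.22.2). Build, annotation and strandedness were not stated, and reads of antisense or overlapping genes cannot be told apart. Libraries were grouped by source name and numbered in accession order. Libraries of the same group differed by more than sampling noise in every pair (chi-square per degree of freedom at least 14.4).

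CPM for the membership rule and all printed levels used column totals. Tests used edgeR 4.0.16 in R 4.3.3 on the counts: filterByExpr (23193 genes kept), TMM factors of 0.914 to 1.10, group as the only term, all 12 libraries in 1 fit. The SE is the log2 fold change over the square root of F, and the prior count was 0.125. Alternatives used DESeq2 1.42.0, limma 3.58.1, other scalings and filters, and left-out libraries. Identifiers named were, of the members, the one with the largest smallest excess, the one with the highest mean CPM, and per comparison at most 2 called each way with the largest fold change. The members and these choices were set with earlier results of these data known. The procedures were tested on simulated data. Gene lists and cell markers, written as patterns on gene descriptions, could not be used.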

Additional observations from a re-analysis of the deposited data

Results flagged for a closer look

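In 39 groups of 4 values, the highest or lowest library was set against the others by its gap to the nearest one relative to the group's range, and 13 groups had a value past Dixon's 95% limit. Chance gives about 1 in 20 groups for independent values. All 13 values belong to defining libraries, and the rule chose the members for height there, so these are no separate support.

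The share of reads in the members was flagged in all 3 treatments, at 1.31% in water replicate 3, 1.74% in IbHypSysIV replicate 4 and 1.85% in IbPep1 replicate 3. The level of itf15g22400 was flagged in the same libraries at 7.96, 16.4 and 24.5 CPM. In water replicate 3, itf02g12190 at 15.7 CPM, itf06g10940 at 1.74 CPM and itf15g05600 at 22.1 CPM stood apart from the other water libraries. In IbHypSysIV replicate 4, itf07g19620 at 32.8 CPM and itf15g05600 at 9.88 CPM did so, and in IbPep1 replicate 3, itf06g10940 at 157 CPM and itf07g19620 at 159 CPM. The total counts and the shares of reads in the gene or the 100 genes with the most reads gave no such value.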

How the results depend on the processing

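The number of members was 728 and 167 with an excess of at least 0.5 and 1, 169 with a pseudocount of 2 and 101 where the excess was taken over the highest of the other 3 libraries; it was 313, 205, 285 and 179 with a pseudocount of 0.1, TMM-scaled CPM, no minimum and a minimum of 5 CPM. It ranged from 242 to 657 over left-out libraries, with 657, 403 and 642 where water replicate 3, IbHypSysIV replicate 4 or IbPep1 replicate 3 was dropped from the rule. The members called for IbHypSysIV against water, IbPep1 against water and between the peptides were 20, 21 and 29 with DESeq2 (7.72%, 8.11% and 11.2%, against 6.10%, 15.5% and 17.7% of all genes). Of expressed genes alone, DESeq2 called 8.38%, 20.4% and 23.5%. The members called were 40, 79 and 69 without the 3 defining libraries, by whose height the members were chosen. Over single left-out libraries they ranged from 0 to 13, 1 to 62 and 4 to 35. With the replicate block on the title numbers they were 0, 72 and 9 (27.7% and 3.46% for the last 2, against 14.4% and 2.59% of all genes; the first fit called 0 of 23193 genes), with 3 title numbers at most shared by 2 groups. Same-numbered libraries deviated from their group means with correlations of -0.0763 to 0.14, so the numbers are not shown to pair them. Beside the 0 members called in that fit for IbHypSysIV (edgeR's quasi-likelihood test), the count at an unadjusted p under 0.05 was 53. No share of all genes was computed at that limit, so this count does not set the members apart. DESeq2 and limma-voom, without the block, called 20 and 3 members (7.72% and 1.15%, against 8.38% and 2.44% of expressed genes). The cause of these changes was not tested. The other scalings, no filter, limma-voom and fits of the compared groups kept the 3 counts within 1.5 times. No named fold change turned its direction in any alternative; itf06g10940 and itf07g19620 lost their call with limma-voom (log2 6.23 and 2.68). With the block, calls ended for itf02g12190 and itf09g14300 with IbHypSysIV against water (log2 2.67 and 2.47, edgeR adjusted p = 0.229 and 0.251), itf07g19620 with IbPep1 against water (3.46, adjusted p = 0.0556) and itf02g12190 between the peptides (-1.59, adjusted p = 0.0903). The TMM-scaled excess and order of libraries were added after seeing the data. Fewer than 3 counts in 11 members limit what depth can show there.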
